A study of Mus musculus with 8 samples.

Results

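The SLC25 genes encode the mitochondrial carrier family, and they were taken here as the genes whose symbol starts with Slc25a and that had 10 or more estimated counts in at least 4 of 8 kidney libraries. Of 47 such symbols, 41 passed, among 21759 genes in all. The libraries come from 8 male knock-in mice aged 8 months that model MUC1 kidney disease, in which a frameshift in the mucin gene MUC1 damages the tubules. Both groups carried the knock-in, and wild-type mice were not analysed here. For 7 days, 4 mice had saline as vehicle daily and 4 had a daily dose of 50 mg/kg of BRD4780, a small molecule (titles of these samples read AGN50). The group of a sample comes from its treatment field. RNA came from a sagittal section, a bulk sample of mixed cell types, so fewer cells of a type and less RNA per cell cannot be told apart. Library totals were 16.6 to 28.5 M expected counts with vehicle and 5.74 to 28.2 M with BRD4780, the lowest in BRD4780 replicate 4. BRD4780 replicate 3 stood apart from the other treated libraries in many carriers, and the carriers' calls and summed level are given with and without it.

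Most mitochondrial carriers are proteins of the inner mitochondrial membrane that exchange metabolites between the matrix and the cytosol, among them ADP, ATP, phosphate, keto acids, amino acids, vitamins, iron and glutathione. They are encoded in the nucleus and inserted through the TIM22 import pathway. Proximal tubule and thick ascending limb cells are rich in mitochondria, and carriers there serve ATP supply, gluconeogenesis and ammonia production.

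With BRD4780, 3 carrier genes rose and 0 fell. They were Slc25a33, of a pyrimidine nucleotide carrier (2.90-fold), Slc25a25, of a calcium-regulated carrier that exchanges ATP-Mg for phosphate (1.997-fold), and Slc25a22, of a glutamate carrier (1.45-fold). The orphan carrier gene Slc25a35 lay lower in all treated libraries but missed the threshold (adjusted p = 0.0802, edgeR's quasi-likelihood test). Of 13474 genes tested, 2.30% were called higher and 0.623% lower at an adjusted p under 0.05, against 7.32% (3 of 41) and 0 of the carriers (2.92% of all genes in either direction). These counts depended on single libraries, as did those of all genes. None was called in either direction without vehicle replicate 2, BRD4780 replicate 1 or BRD4780 replicate 2 (0 higher, 0 lower). Over all genes, 26, 52 and 53 were then higher and 5, 14 and 13 lower, against 310 and 84 with all 8 libraries. Without BRD4780 replicate 3, 5 carriers were higher and 11 lower, where 12.1% and 11.3% of all genes were. The median log2 fold change of the carriers was -0.03, beside 0.01 over all genes tested. At an unadjusted p under 0.05, 5 carriers lay higher and 7 lower (12.2% and 17.1%, against 13.9% and 10.7% of all genes).

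Promoter windows of the genes that rose are printed to show which regulatory letters they do and do not have in common, with that of Slc25a36, the other pyrimidine nucleotide carrier gene, which was not called. RefSeq windows (GRCm38.p6) run from 250 bases before to 50 bases after an annotated start. They were found for 32 of the 41 carriers, in 42 windows. Capitals mark matches to CACGTG (an E-box, the element of MYC and clock factors) or TGACGTCA (the cyclic AMP element of CREB and ATF proteins), which read the same on both strands. The windows are Slc25a33 (chr4:149774218-149774517, minus strand), Slc25a36 (chr9:97110992-97111291, minus strand), the most downstream of 3 starts of Slc25a25 (chr2:32424017-32424316, minus strand) and the most upstream of 3 starts of Slc25a22 (chr7:141437825-141438124, minus strand).
Slc25a33: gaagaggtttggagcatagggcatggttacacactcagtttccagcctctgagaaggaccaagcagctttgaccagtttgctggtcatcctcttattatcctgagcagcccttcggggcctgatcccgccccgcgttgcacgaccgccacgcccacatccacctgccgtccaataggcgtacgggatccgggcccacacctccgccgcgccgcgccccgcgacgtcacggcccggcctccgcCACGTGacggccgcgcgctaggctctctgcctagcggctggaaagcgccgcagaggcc
Slc25a36: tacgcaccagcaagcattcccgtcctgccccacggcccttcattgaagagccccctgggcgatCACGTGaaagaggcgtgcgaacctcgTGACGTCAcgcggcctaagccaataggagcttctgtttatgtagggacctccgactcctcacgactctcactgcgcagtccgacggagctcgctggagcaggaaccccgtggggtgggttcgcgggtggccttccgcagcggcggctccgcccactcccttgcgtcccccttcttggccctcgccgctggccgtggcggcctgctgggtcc
Slc25a25: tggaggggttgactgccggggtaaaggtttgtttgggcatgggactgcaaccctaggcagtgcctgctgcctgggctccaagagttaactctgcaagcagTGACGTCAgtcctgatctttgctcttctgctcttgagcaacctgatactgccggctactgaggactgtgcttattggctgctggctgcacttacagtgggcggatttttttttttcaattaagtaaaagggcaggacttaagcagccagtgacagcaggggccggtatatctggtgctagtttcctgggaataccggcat
Slc25a22: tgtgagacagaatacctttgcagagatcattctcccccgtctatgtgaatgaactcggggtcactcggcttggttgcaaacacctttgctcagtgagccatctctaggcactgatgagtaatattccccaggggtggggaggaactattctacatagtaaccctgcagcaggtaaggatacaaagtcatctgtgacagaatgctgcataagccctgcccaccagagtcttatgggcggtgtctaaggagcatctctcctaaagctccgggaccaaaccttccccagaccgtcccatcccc

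The E-box letters of Slc25a33 began 8 bases before the start, and Slc25a36 held both an E-box (187 bases before the start) and the cyclic AMP element (161 bases before). The cyclic AMP element of Slc25a25 began 150 bases before that start and was not in the other two windows of the gene. None of these motifs was in the 3 windows of Slc25a22. CACGTG was in 7 of 42 carrier windows (16.7%, in 6 carriers) against 7.15% of all 32851 windows, and TGACGTCA in 2 of 42 (4.76%) against 1.79%. The E-box windows of Slc25a14 overlap and hold the same site, which is therefore counted more than once. Carrier windows had a median GC content of 59.3% and all windows 52.7%. Further motifs searched on both strands were TGATGNAA, the core of the composite element bound by ATF4 with a C/EBP partner (0 of 42, against 3.97% of all windows), the palindromic consensus of NRF1 (0 of 42, against 0.971%), and TCAAGGTCA, the site of estrogen-related receptors (0 of 42, against 0.423%). A match describes these letters only.

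Levels of the carriers in the vehicle group spanned from 1104 to 0.263 CPM (counts scaled to a fixed library total) per kb of transcript. The highest was Slc25a5 (chromosome X, 36795651 to 36798807, plus strand), of the ADP/ATP carrier ANT2. It was followed by the glutathione carrier gene Slc25a39 at 969 and the phosphate carrier gene Slc25a3 at 706 CPM per kb. The dicarboxylate carrier gene Slc25a10 and the oxoglutarate carrier gene Slc25a11 came next, at 271 and 267 CPM per kb, a difference smaller than the spread between libraries. Slc25a4, of the ADP/ATP carrier ANT1 best known from heart and muscle, stood at 139 CPM per kb, level with the citrate carrier gene Slc25a1 (139). With the longest annotated transcript as the length, Slc25a3 and Slc25a39 changed places, as did Slc25a1 (98.2 CPM per kb) and Slc25a4 (139). Slc25a11 then stood at 151 CPM per kb beside Slc25a10 at 271, so both near-ties depended on the length used. Of the 10 highest carriers 8 were still among the 10 highest.

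**Figure D1:**
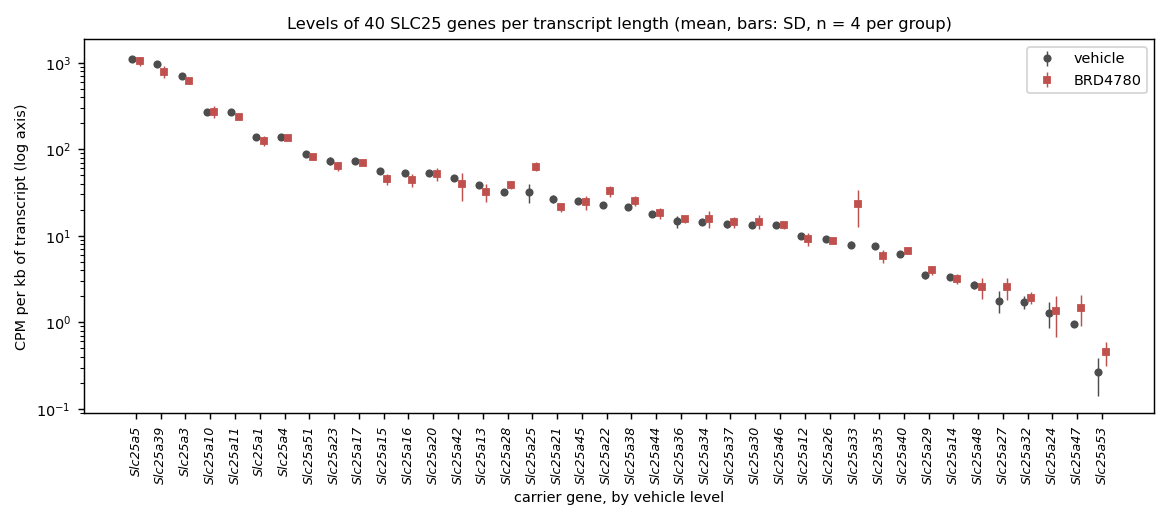
Level of 40 of the 41 SLC25 genes in CPM per kb of transcript (vertical log axis), ordered by the vehicle level, as the mean with SD of 4 libraries for vehicle (circles) and BRD4780 (squares). The levels run from 1104 to 0.263 CPM per kb with vehicle, and the squares of Slc25a33, Slc25a25 and Slc25a22 lie clear of their circles.

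The vehicle libraries agreed closely. The coefficient of variation between them had a median of 6.5% over the carriers and was under 10% in 31 of 41. Among the BRD4780 libraries the median was 14.8%, and 36 of 41 carriers varied more there than with vehicle, beside 69.9% of all genes. The 4 carriers with the highest CPM (Slc25a5, Slc25a3, Slc25a39 and Slc25a10) made up 59.5% to 61.9% of the carriers' summed CPM with vehicle and 58.1% to 59.9% with BRD4780. The summed level was 6433 ± 192 CPM in the vehicle group and 5960 ± 587 CPM in the treated group (SD, n = 4 each), and 5669 ± 84.9 CPM (SD, n = 3) without BRD4780 replicate 3. It stood at 5579, 5680, 6834 and 5748 CPM in BRD4780 replicates 1 to 4, so that replicate 3 lay above all vehicle libraries (6234 to 6679 CPM) and the other treated libraries below them.

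Among the carriers of nucleotides and phosphate, 2 of 8 rose and 0 fell. Slc25a25 (chromosome 2, 32414487 to 32451445, minus strand, mm10) stood at 47.7, 63.0, 83.8 and 79.6 CPM in vehicle replicates 1 to 4. With BRD4780 it stood at 126, 158, 140 and 121 CPM. Each treated library lay above each vehicle library, and vehicle replicate 1 was the lowest of all. Its level went from 68.5 ± 16.5 to 136 ± 16.5 CPM (SD, n = 4 each), a log2 fold change of 1.00 ± 0.16 (SE) with an adjusted p of 0.0175 by edgeR's quasi-likelihood test. It did not pass without vehicle replicate 2 (0.96, adjusted p = 0.0755), nor without BRD4780 replicates 1 or 2 (1.03 and 0.92, adjusted p = 0.0586 and 0.0535). Exons of Slc25a25 share 379 bases with Naif1 on the opposite strand, which stood at 1.79 ± 0.49 and 1.06 ± 0.26 CPM (SD, n = 4 each).

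Slc25a33 (chromosome 4, 149744036 to 149774277, minus strand), whose product brings pyrimidine nucleotides to the matrix for mitochondrial RNA and DNA synthesis, stood at 15.1, 15.7, 12.9 and 15.9 CPM with vehicle. With BRD4780 it stood at 41.7, 44.4, 20.6 and 70.3 CPM. The treated libraries were all higher and spread widely, with replicate 3 the lowest and replicate 4, the shallowest library, the highest. The level went from 14.9 ± 1.4 to 44.2 ± 20.4 CPM (SD, n = 4 each; log2 fold change 1.53 ± 0.29 SE, edgeR adjusted p = 0.0278). The fold change kept its sign and lay between 1.25 and 1.77 on the log2 scale whichever library was left out. It passed the threshold without BRD4780 replicate 3 (adjusted p = 0.000225), and missed it without any other single library. The adjusted p was then 0.0846, 0.0913, 0.0772 and 0.0503 without vehicle replicates 1 to 4, and 0.0831, 0.0769 and 0.0556 without BRD4780 replicates 1, 2 and 4. An antisense transcript, Gm13068, shares 281 exonic bases with Slc25a33, which matters if counting ignored strand.

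The other pyrimidine nucleotide carrier gene, Slc25a36 (chromosome 9, 97074961 to 97111157, minus strand), stood at 65.8, 46.6, 63.3 and 68.1 CPM with vehicle. With BRD4780 it stood at 63.4, 68.5, 56.9 and 69.4 CPM. The groups overlapped, with a log2 fold change of 0.08 (95% interval -0.19 to 0.35, adjusted p = 0.72). The log2 ratio of Slc25a33 to Slc25a36 counts went from -2.02 ± 0.31 to -0.67 ± 0.61 (SD, n = 4 each), with the groups apart. An exact two-sided permutation of the group labels gave p = 0.0286, the smallest that 70 arrangements allow, and 0.19 after adjustment over 13 pairs of related carriers. The ratio of Slc25a23 to Slc25a25, both of calcium-regulated ATP-Mg carriers, gave the same raw and adjusted values (exact permutation, p = 0.0286, adjusted p = 0.19), at 0.58 ± 0.42 and -0.64 ± 0.25 (SD, n = 4 each). Slc25a23 itself stood at 100.2 ± 10.4 and 87.5 ± 11.03 CPM (SD, n = 4 each; edgeR adjusted p = 0.28). None of the other 11 pairs had a p under 0.05, and 0 of 13 passed after adjustment.

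The abundant carriers of ATP supply did not pass the test. Slc25a5 stood at 1466, 1440, 1297 and 1275 CPM with vehicle and at 1128, 1258, 1487 and 1318 CPM with BRD4780. Its groups overlapped fully, with a log2 fold change of -0.08 (95% interval -0.31 to 0.16). The interval for Slc25a4 was -0.20 to 0.14 around -0.03, and that for Slc25a3 was -0.40 to -0.0017 around -0.20 (edgeR adjusted p = 0.84 and 0.20). The log2 ratio of Slc25a4 to Slc25a5 was -2.36 ± 0.06 in the vehicle group and -2.30 ± 0.07 in the treated group (SD, n = 4 each; exact permutation p = 0.34). RSEM shares reads among similar genes, and Slc25a5 has an annotated pseudogene, so its count is less certain than those of single-copy genes.

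**Figure D2:**
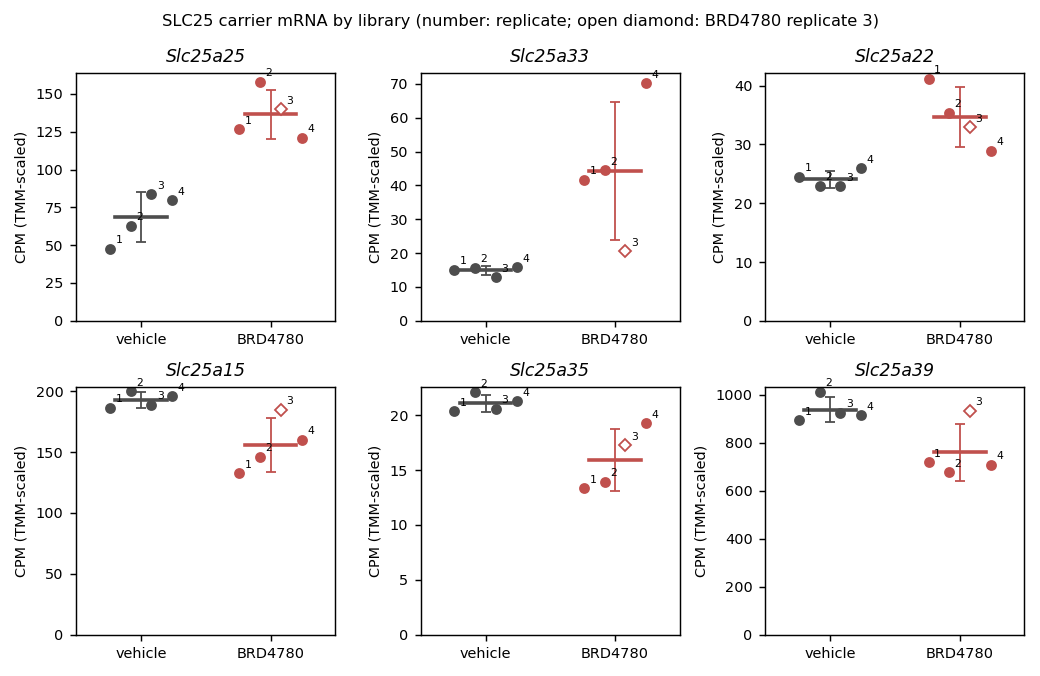
CPM with TMM-scaled totals (vertical axis, from 0) in each library for 6 SLC25 genes, as points numbered by replicate, with the group mean (thick line) and SD (bar) of 4 libraries; the open diamond is BRD4780 replicate 3. Slc25a25, Slc25a33 and Slc25a22 have every treated library above every vehicle library, while replicate 3 of Slc25a39 sits inside the vehicle range.

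Of 7 amino acid carriers that passed the count filter 1 rose. Slc25a22 (chromosome 7, 141429744 to 141437892, minus strand), of the glutamate carrier GC1, stood at 24.5, 22.9, 22.9 and 26.0 CPM with vehicle. With BRD4780 it stood at 41.2, 35.4, 32.9 and 28.9 CPM. The groups did not overlap, and the closest libraries were vehicle replicate 4 and BRD4780 replicate 4. The log2 fold change was 0.53 ± 0.11 (SE, adjusted p = 0.0351, edgeR's quasi-likelihood test). The call was lost without vehicle replicates 1, 2 or 3 (adjusted p = 0.103, 0.112 and 0.0953), without BRD4780 replicates 1 or 2 (adjusted p = 0.0860 and 0.0919), and after thinning all libraries to equal totals (0.46, adjusted p = 0.0922).

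Slc25a15, of the ornithine carrier of the urea cycle, was at 186, 200, 189 and 196 CPM with vehicle and at 133, 146, 185 and 160 CPM with BRD4780. The groups lay just apart, with replicate 3 close below the vehicle libraries, and the log2 fold change of -0.31 ± 0.10 (SE) missed the threshold (edgeR adjusted p = 0.11). Slc25a38, of the glycine carrier that serves heme synthesis, stood between 29.5 and 29.9 CPM with vehicle and between 29.2 and 41.1 CPM with BRD4780 (edgeR adjusted p = 0.17). The aspartate/glutamate carrier genes Slc25a12 and Slc25a13, of the malate-aspartate shuttle, had log2 fold changes of -0.12 and -0.25, and the branched-chain amino acid carrier gene Slc25a44 of 0.00.

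Carriers of keto acids, dicarboxylates and acylcarnitines had 0 of 5 called. Slc25a21, of the oxodicarboxylate carrier, gave the lowest p of them, with 44.0 ± 4.65 CPM in the vehicle group and 35.2 ± 4.50 CPM in the treated group (SD, n = 4 each; edgeR adjusted p = 0.12). Slc25a11 stood at 257.7 ± 12.8 and 230.8 ± 17.5 CPM (SD, n = 4 each; edgeR adjusted p = 0.24). Slc25a10, the most abundant of the group, had a log2 fold change of 0.01 (95% interval -0.25 to 0.28), and Slc25a20, of the carnitine/acylcarnitine carrier of fatty acid oxidation, -0.03 (-0.28 to 0.22).

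Cofactor and vitamin carriers had 0 of 8 called. Slc25a16, linked to coenzyme A supply, was at 111.1 ± 5.4 and 92.7 ± 16.6 CPM (SD, n = 4 each; edgeR adjusted p = 0.20). The NAD carrier gene Slc25a51 had a log2 fold change of -0.12, and the folate and FAD carrier gene Slc25a32, from low counts, of 0.15.

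Iron and glutathione carriers had 0 of 4 called. Slc25a39, which carries glutathione into the matrix, stood at 895, 1014, 926 and 917 CPM with vehicle and at 721, 678, 934 and 708 CPM with BRD4780. Replicate 3 sat amid the vehicle libraries and the other treated libraries well below them (log2 fold change -0.30 ± 0.11 SE, edgeR adjusted p = 0.14). Slc25a28, of the iron carrier mitoferrin-2, stood at 37.3 ± 2.0 and 44.6 ± 4.4 CPM (SD, n = 4 each; edgeR adjusted p = 0.12). Uncoupling-protein-like carriers had 0 of 3 called, with Slc25a27 at 3.71 ± 1.07 and 5.30 ± 1.55 CPM and the kidney carrier gene Slc25a30 at 26.8 ± 2.1 and 29.4 ± 5.6 CPM (SD, n = 4 each).

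Orphan and other carriers had 0 of 6 called. Slc25a35 (chromosome 11, 68968131 to 68974365, plus strand) had levels of 20.4, 22.1, 20.6 and 21.3 CPM with vehicle and of 13.3, 13.9, 17.2 and 19.2 CPM with BRD4780. All treated libraries lay below all vehicle libraries (log2 fold change -0.42 ± 0.12 SE, edgeR adjusted p = 0.0802), and DESeq2 called it (adjusted p = 0.0218), as did edgeR without BRD4780 replicate 3 (-0.49, adjusted p = 0.0194). After thinning all libraries to equal totals the log2 fold change was -0.21 (edgeR adjusted p = 0.39). Its exons share 1151 bases with Rangrf on the opposite strand, which stood at 13.4 ± 1.5 and 13.0 ± 1.4 CPM (SD, n = 4 each). Slc25a53, the least abundant carrier kept, had between 3 and 32 counts a library and 10 or more in 6 of 8.

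The count filter left out 6 symbols. Slc25a31, of an ADP/ATP carrier of germ cells, lay just outside with 10 or more counts in 3 libraries and 0 to 21 counts a library. Slc25a43 and Slc25a2 reached 10 counts in 1 library each, Slc25a18 and Slc25a41 in none, and Slc25a54 was at 0 in all 8. No carrier passed the filter through the BRD4780 libraries alone.

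**Figure D3:**
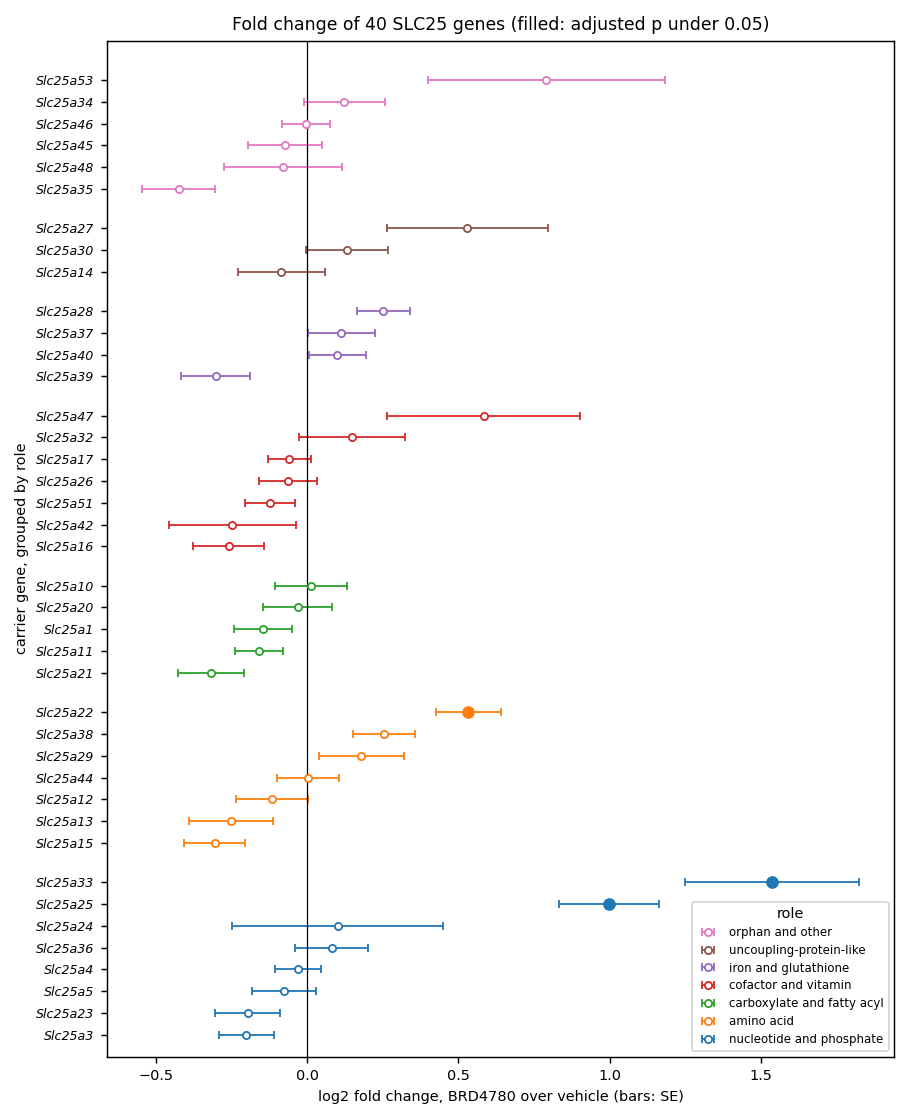
Log2 fold change of BRD4780 over vehicle (horizontal axis, 0 marked) with its SE for 40 of the 41 SLC25 genes, grouped and coloured by the role of the carrier; filled points passed an adjusted p under 0.05. The filled points are Slc25a33 (1.53), Slc25a25 (1.00) and Slc25a22 (0.53), and the lowest open point is Slc25a35 (-0.42).

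For 31 of the 38 carriers not called, the 95% interval of the fold change lay within a 1.5-fold change in either direction. DESeq2 called 3 carriers higher, the same genes as edgeR, and 2 lower (7.32% and 4.88%, against 6.39% and 3.80% of all genes it tested). The groups did not overlap in 3 carriers that were higher and 2 that were lower (7.32% and 4.88%, against 7.44% and 5.16% of all genes).

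The number of carriers called moved with the library left out. Of those higher 0 were left without vehicle replicate 2, BRD4780 replicate 1 or BRD4780 replicate 2, 1 (Slc25a25) without vehicle replicates 1 or 3, and 2 (Slc25a22 and Slc25a25) without vehicle replicate 4 or BRD4780 replicate 4, with 0 lower in each of these fits. Over all genes, 26 to 176 were higher and 5 to 57 lower in these fits, against 310 and 84 with all 8 libraries. BRD4780 replicate 3 was the library whose absence raised the counts. It was the highest of the treated libraries in 23 of 41 carriers (56.1%, against 29.3% of all genes), among them 19 of the 23 with a negative fold change. Without it, 11 carriers were lower and 5 higher by edgeR's quasi-likelihood test (26.8% and 12.2%, against 11.3% and 12.1% of all genes). Among those lower were Slc25a1, Slc25a3, Slc25a11, Slc25a13, Slc25a15, Slc25a16, Slc25a21, Slc25a35, Slc25a39 and Slc25a42. The log2 fold changes of these named genes then ran from -0.50 ± 0.14 in Slc25a42 (SE, adjusted p = 0.0294) to -0.21 ± 0.07 in Slc25a11 (SE, adjusted p = 0.0477). Slc25a28 (0.31) and Slc25a47 (0.85), a liver carrier gene at low level here, joined the 3 that were higher. Without replicate 3, 12 carriers had every treated library below every vehicle library (29.3%, against 16.6% of all genes) and 6 had every one above (14.6%, against 17.9%). In those 12, replicate 3 lay inside the vehicle range in 8, above it in 2 and below it in 2.

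**Figure D4:**
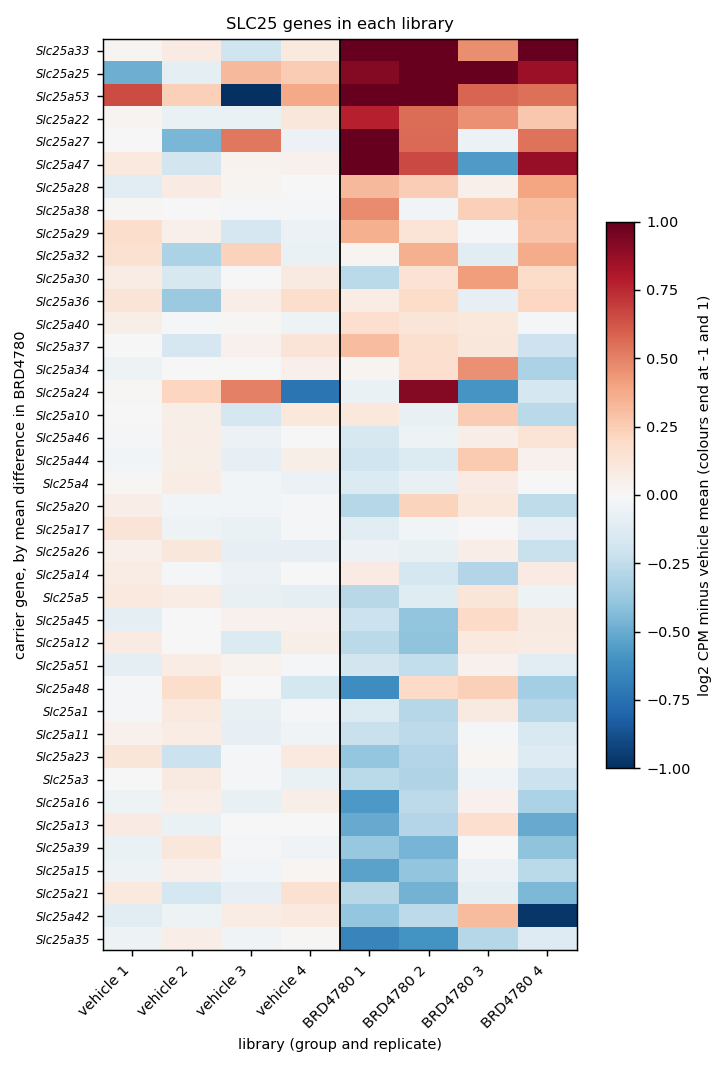
Log2 CPM minus the vehicle mean (colour, red higher and blue lower, ending at -1 and 1) of 40 of the 41 SLC25 genes (rows, ordered by their mean in BRD4780) in the 8 libraries (columns). Slc25a39 is blue in BRD4780 replicates 1, 2 and 4 and near white in replicate 3, while Slc25a33, Slc25a25 and Slc25a22 are red in all 4 treated libraries.

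Markers of some other cell types differed between the groups or followed BRD4780 replicate 3. The summed level of 13 proximal tubule markers was 67061 to 75367 CPM with vehicle, 74775 CPM in BRD4780 replicate 3, and 57396, 45557 and 49494 CPM in BRD4780 replicates 1, 2 and 4. Kap was the largest part of that sum, at 45320 ± 3631 CPM with vehicle (SD, n = 4). It stood at 35905, 25883, 44576.5 and 29500 CPM in BRD4780 replicates 1 to 4. Of the 13 markers 1 was called higher (Pck1) and 0 lower, with 9 fold changes below 0 and 4 above. Without BRD4780 replicate 3, 1 was higher and 6 lower, where 12.1% and 11.3% of all genes were. Without any other single library 0 were called. The 9 podocyte markers summed to 69.2 to 155.7 CPM with vehicle and 222 to 333 CPM with BRD4780 (4 higher, 0 lower), and the 10 endothelial markers to 165 to 296 and 338 to 433 CPM (4 higher, 0 lower). The 9 thick ascending limb markers summed to 3362 to 4411 and 2292.5 to 3624 CPM (3 lower, 0 higher). With 1 library left out, the number higher ranged from 0 to 8 for podocyte and for endothelial markers, and the number lower from 0 to 6 for thick ascending limb markers, each highest without BRD4780 replicate 3 and 0 without vehicle replicate 2. Macrophage and leukocyte markers (9 in the table, 8 tested, 0 called) summed to 741 to 799 CPM with vehicle, to 794 CPM in BRD4780 replicate 3 and to 550, 536 and 624 CPM in BRD4780 replicates 1, 2 and 4, with replicate 3 the highest treated library, as in the carriers' sum. Cd74 was the largest part of the marker sum, at 599 ± 50.4 CPM with vehicle (SD, n = 4) and 430, 438, 629 and 495 CPM in BRD4780 replicates 1 to 4. Distal tubule and collecting duct markers had 1 of 11 higher (Trpm6) and summed to 1385 to 1557 and 1361 to 2059 CPM, and brown adipocyte markers had 1 of 5 lower (Cox7a1) and summed to 72.5 to 203 and 49.6 to 138 CPM, with overlapping groups in both. Adipocyte markers (8 in the table, 6 tested, 0 called) summed to 85.6 to 253 CPM with vehicle and 56.7 to 179 CPM with BRD4780, and erythrocyte markers (6 in the table, 5 tested, 0 called) to 568 to 1669 and 221 to 846 CPM, also overlapping. Without BRD4780 replicate 3, 4 erythrocyte markers and 2 macrophage and leukocyte markers were lower and 0 higher. Of the distal tubule and collecting duct markers 4 were then higher and 1 lower. Skeletal muscle markers were near 0, summing to at most 2.38 CPM in a library. Their part in the carrier results was not tested. In these 10 lists no marker was at 0 in every library. The adipocyte gene Lep was at 0 in 4 libraries.

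Carriers known by other symbols had 0 of 5 called (1 lower and 0 higher without BRD4780 replicate 3). Ucp1, the uncoupling protein of brown fat, spanned 9.01 to 84.3 CPM in the vehicle group and 0.300 to 65.1 CPM in the treated one (edgeR adjusted p = 0.55). The highest library of each group in Ucp1 was also its highest in the adipocyte gene Adipoq (16.7 CPM in vehicle replicate 2 and 5.03 CPM in BRD4780 replicate 2). Ucp2 stood at 164.5 ± 28.1 and 180.6 ± 66.8 CPM, Ucp3 at 1.21 ± 0.72 and 0.697 ± 0.575 CPM, and the outer-membrane relatives Mtch1 at 184.2 ± 9.5 and 178.1 ± 8.7 CPM and Mtch2 at 216.0 ± 13.4 and 187.8 ± 17.3 CPM (SD, n = 4 each).

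The machinery that imports carriers had 0 of 12 called, with 11 of 12 fold changes below 0 and a median of -0.13, beside 48.4% of all genes below 0. Tomm40, the pore of the outer membrane, gave the lowest p (log2 fold change -0.19, edgeR adjusted p = 0.14). Other mitochondrial membrane transport genes had 0 of 17 called and a median of -0.11, with Abcb10, a transporter linked to heme synthesis, at -0.29 (edgeR adjusted p = 0.0764). Without BRD4780 replicate 3, 6 of these transport genes were lower and 1 higher, where 11.3% and 12.1% of all genes were. Of the import genes 0 were then called. Regulators of mitochondrial biogenesis had 0 of 8 called (1 lower and 0 higher without BRD4780 replicate 3), and Ppargc1b stood at -0.74 (edgeR adjusted p = 0.0604).

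Partner enzymes were taken by the substrates they share with carriers. Malate-aspartate and citrate enzymes had 1 of 11 lower and 0 higher with a median of -0.30. It was Gpd2, the mitochondrial enzyme of the glycerol phosphate shuttle, at 64.5 ± 8.3 and 38.6 ± 10.7 CPM (SD, n = 4 each; edgeR adjusted p = 0.0499), a call lost with RLE or upper-quartile normalization (adjusted p = 0.0521 and 0.05001) and with limma-voom (0.0528). It was also lost without any single library other than BRD4780 replicate 3 (adjusted p = 0.0673 to 0.15). Without BRD4780 replicate 3, 10 of the 11 were lower and 0 higher, where 11.3% and 12.1% of all genes were. Iron, heme and glutathione genes had 1 of 13 lower and 0 higher with a median of -0.27. Gss, glutathione synthetase, fell from 584, 611, 571 and 596 CPM to 414, 329, 480 and 332 CPM (edgeR adjusted p = 0.0357), a call lost without any single library other than BRD4780 replicate 3 (adjusted p = 0.0595 to 0.11). Without BRD4780 replicate 3, 7 of the 13 were lower and 0 higher.

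Folate, S-adenosylmethionine, coenzyme A and NAD enzymes had 2 of 14 higher and 0 lower, both of mitochondrial folate metabolism. Without BRD4780 replicate 3, 2 of the list were higher and 4 lower. Mthfd2 was at 4.16, 5.27, 5.30 and 4.18 CPM with vehicle and at 25.2, 31.5, 13.0 and 41 CPM with BRD4780 (edgeR adjusted p = 0.00468). Its treated libraries stood in the same order as those of Slc25a33, with replicate 3 lowest and replicate 4 highest, but not as those of Slc25a25 and Slc25a22. Mthfd1l rose 1.76-fold (edgeR adjusted p = 0.0302), a call lost without vehicle replicates 1, 2 or 4 or BRD4780 replicates 1, 2 or 4 (adjusted p = 0.0544 to 0.10). Slc25a32, which carries folate to these enzymes, stood at 5.93 ± 0.97 and 6.62 ± 1.06 CPM (SD, n = 4 each; edgeR adjusted p = 0.63). Ornithine and glutamate enzymes had 0 of 8 called (lowest p in Asl, edgeR adjusted p = 0.0928), with Otc at 0 in all 8 libraries, and carnitine shuttle genes 0 of 7 (lowest p in Acsl1, edgeR adjusted p = 0.0717). Without BRD4780 replicate 3, 2 ornithine and glutamate enzymes were higher and 2 lower. Of the carnitine shuttle genes 1 was then higher and 4 lower.

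ATF4, a transcription factor that the integrated stress response induces, was itself higher, and the list of its targets, which includes its own gene, had 10 of 20 higher and 0 lower, where 2.30% and 0.623% of all genes were. The number higher was 3 without vehicle replicates 1 or 2, 5 without BRD4780 replicate 1, 6 without vehicle replicate 3 or BRD4780 replicates 2 or 4, 8 without vehicle replicate 4, and 15 (with 1 lower) without BRD4780 replicate 3. The listed genes summed to 889 to 964 CPM in the vehicle libraries and to 1302, 1388, 1136 and 1702 CPM in BRD4780 replicates 1 to 4, in the order seen for Slc25a33. Slc25a25 and Slc25a22 did not follow that order: BRD4780 replicate 4 was their lowest treated library (121 and 28.9 CPM). A link of ATF4 to the carriers was not tested. Atf4 rose 1.52-fold and Atf5, of a related factor of the mitochondrial stress response, 7.11-fold (edgeR adjusted p = 0.0106 and 0.00207). Aldh18a1, of the first enzyme from glutamate to proline, rose 3.36-fold and Slc3a2, of a plasma membrane amino acid transporter chain, 1.74-fold (edgeR adjusted p = 0.0121 and 0.0141). Without vehicle replicate 2 neither passed (adjusted p = 0.0576 and 0.0610), nor did Slc3a2 without vehicle replicate 1 (adjusted p = 0.0545).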

How the data were processed

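Poly(A) RNA of 8 kidneys was sequenced, 1 library per mouse. The deposited values are expected counts per gene, estimated by the authors and not normalized, and 15.1% to 28.9% of a library's values were not whole. Per the submitters' processing notes, STAR 2.5.2b, RSEM 1.3.0 and Picard were used and the builds mm10 and hg19 named, with no role stated. For annotation, read filters and strand setting: not given in the sources used here. The labels name no batch. Replicate numbers follow deposition order and pair nothing. Titles of 2 vehicle and 2 treated samples share the first part of their number across groups. The labels do not say what it marks, so no block was fitted and its part in the results was not tested. A column of values (1) matched no sample and was not used.

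Symbols on several lines with identical values (343) were collapsed. Counts were rounded, filtered with filterByExpr (minimum count 10), TMM-scaled and tested with edgeR 4.0.16 (quasi-likelihood F-test, R 4.3.3) over all 8 libraries, with Benjamini-Hochberg adjustment over 13474 genes and a threshold of 0.05. SE is the absolute log2 fold change over the square root of F. CPM use TMM-scaled totals, and lengths are mean coding-transcript lengths in GENCODE M21 (GRCm38), where all 47 symbols were found. Exons of 12 of the 47 overlap a gene on the opposite strand. A count of 0 allows up to 3 counts (0.101 to 0.502 CPM, counting error only). Ratios of pairs used a prior count of 0.5. Alternatives were DESeq2 1.42.0, limma-voom (limma 3.58.1), other scalings and filters, thinning and leaving out each library. The edgeR test was tried on simulated counts.

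The members, roles, lists and pairs were chosen with earlier results of these data known. Named are members past the threshold, the 2 with the smallest p in each role group, the 3 highest per length, those nearest the count filter, pairs at the smallest p and, in each partner list, up to 4 called genes or that with the smallest p. Further genes, such as Slc25a4, Slc25a10 and Slc25a13, and overlapping genes were chosen after their values were seen. Results of 1 carrier are not reported here singly, though counts and sums include it. Each library is 1 mouse, so the tests set the difference between groups against the spread between mice.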

Additional observations from a re-analysis of the deposited data

Results flagged for a closer look

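Slc25a39 in BRD4780 replicate 3 stood at 933.7 CPM, far from the other 3 treated libraries (678 to 721 CPM), with a gap to the nearest of 0.833 of the group's range, just above Dixon's critical value for 4 samples. It was the 1 such sample in 36 groups of 4 examined, over 18 named carriers, and chance alone gives about 1 in 20.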

How the results depend on the processing

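The number of carriers higher was 3 with DESeq2, RLE or upper-quartile normalization, no count filter and the carriers' own filter applied to all genes, and 2 with limma-voom (without Slc25a33, adjusted p = 0.0561) or after thinning. It ranged from 0 to 5 with 1 library left out, and was 0 without vehicle replicate 2, BRD4780 replicate 1 or BRD4780 replicate 2. Over all genes the number higher then ranged from 26 to 1647. The number of carriers lower was 2 with DESeq2 and 0 to 11 with 1 library left out, 0 in each case but that of BRD4780 replicate 3. The median log2 fold change of the carriers ranged from -0.078 to 0.0044 with 1 library left out, the highest without BRD4780 replicate 1, and from -0.04 to -0.02 under the other settings. The fold change of Slc25a36 turned to -0.029 without vehicle replicate 2 and ranged up to 0.138 with 1 library left out. Of the partner genes 14 were called, 28 with DESeq2 and 4 to 57 with 1 library left out. The ratios of the 13 pairs moved by less than the spread between replicates under each setting tried. With 1 library left out their test has fewer arrangements, and it was not read. The causes were not tested beyond the smaller number of libraries. The depth of BRD4780 replicate 4 limits carriers at low counts, such as Slc25a53, Slc25a47 and Slc25a24.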
